A study of Mus musculus with 6 samples.

Results

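Cytosolic ribosomal protein genes encode the proteins of the small and the large subunit of the ribosome that translates nuclear mRNA. They were picked from the deposited expression table by symbol. Symbols taken were Rps or Rpl followed by a number and at most a closing a, l or x. Rpsa and the stalk genes Rplp0, Rplp1 and Rplp2 were taken as well. This leaves out the -ps and Gm symbols of pseudogenes, and the annotated gene type was not checked. The choice gave 80 genes among 43548 gene identifiers, 32 of the small subunit and 48 of the large subunit. Rpl13 of the large subunit was not found by its symbol, so it is missing from all counts and sums. They lie on 19 chromosomes, and chromosome 7 holds the most of them, 14.

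The mRNA came from Met-1 TripZ-200c cells, a mouse mammary carcinoma line of strain FVB/nJ that traces back to an advanced MMTV-PyMT tumor. All cells descend from 1 clone, selected for tight induction after infection with the lentiviral TripZ vector, which makes the miR-200c precursor and a red fluorescent protein once doxycycline (Dox) is given. The Minus Dox group received vehicle (water) and the Plus Dox group 1 µg/mL Dox, both for 48 h with serum and antibiotics (the sample labels name DMEM for growth and RPMI for the treatment), and each group has 3 libraries, from cells plated in triplicate, so p-values measure the spread between cultures of this clone. Cells with the empty vector are not among these samples, so effects of Dox itself and of miR-200c cannot be told apart. Values are FPKM, the fragments of a gene scaled by its transcript length and by the mapped fragments of its library, so they measure a gene's share of the mRNA and not its amount per cell. The number of fragments behind each value is unknown.

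The labels were checked on genes of the epithelial state. Zeb1, a repressor of epithelial genes and a known target of miR-200c, was at 41.0, 42.1 and 42.3 FPKM in Minus Dox and at 19.8, 20.3 and 23.6 FPKM in Plus Dox (log2 fold change −0.98, limma adjusted p = 0.000362). Zeb2, its close relative, was at 29.4, 30.7 and 27.9 FPKM in Minus Dox and at 9.04, 7.82 and 8.004 FPKM in Plus Dox (log2 fold change −1.81, limma adjusted p = 4.48e-05). Both fell, with no overlap between the groups. The keratin gene Krt18 and Epcam, both epithelial, rose by 2.05 and 4.20 on the log2 scale, and Epcam had 2.165 with a pseudocount of 1. The epithelial genes Krt8 and Cdh1 were too low to be tested, with group means of 0.262 and 0.0585 FPKM in Minus Dox and of 0.736 and 0.828 FPKM in Plus Dox. Both had every Plus Dox library above every Minus Dox library, and Krt19 was listed at 0. Of the leukocyte markers Cd3e was listed at 0 in all 6 libraries, and the most abundant, Cd68, lay between 6.31 and 11.3 FPKM with overlapping groups. Of 3 adipocyte markers Adipoq and Plin1 were listed at 0, while Fabp4 was at 13.1, 11.1 and 13.9 FPKM in Minus Dox and at 8.17, 5.09 and 7.199 FPKM in Plus Dox and fell (limma adjusted p = 0.0177, lost in 3 of 18 alternatives). The endothelial gene Cdh5 was at 4.45 FPKM in Minus Dox and 4.15 FPKM in Plus Dox in group mean, with Pecam1 and Tek near 0. Whether Fabp4 has a part in the results was not tested, and fewer cells of a kind and less RNA per cell cannot be told apart here.

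Most ribosomal proteins are needed in equal number, with Rplp1 and Rplp2 of the stalk as an exception, and the genes for them are spread over the genome and read by RNA polymerase II. Their mRNAs are short and abundant, and most begin with a run of pyrimidines at the cap, the TOP motif, through which the kinase mTOR and the protein Larp1 set how well they are translated. Ribosomal proteins made in excess are degraded in the nucleus, and each gene has left many reverse-transcribed copies in mammalian genomes, most of them called processed pseudogenes.

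miR-200c-3p, the product of the vector, is shown here because its seed defines which mRNAs can pair with it. RefSeq places it at chr6:124718324-124718346 on the minus strand of GRCm38.p6, and the capitals mark the seed, bases 2 to 8.
miR-200c-3p: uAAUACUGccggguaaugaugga
The matching site in an mRNA reads CAGTATT. The annotated 3′ UTRs of the ribosomal protein genes are short, with a median of 57 bases against 863 bases in 10780 other genes tested. A site was present in 4 of 75 ribosomal protein genes (5.33%): Rps20, Rpl13a, Rps3 and Rps23. Among the other genes 1428 held a site (13.2%), and among the 9688 of them whose 3′ UTR was no longer than the longest of a ribosomal protein gene 1005 did (10.4%). Those 9688 genes still had a median of 721 bases, so length was not matched. Of the other genes with a site 19.3% fell and 3.5% rose, against 7.41% and 8.51% of those without. Their median 3′ UTR was 2156 bases with a site and 719 bases without, so length was not matched here either. None of the 4 ribosomal protein genes with a site passed the test; their log2 fold changes were −0.00 for Rps20, −0.17 for Rpl13a, 0.00 for Rps3 and 0.30 for Rps23. A match of letters is a description and not a site shown to be bound.

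Start sites were compared with the RefSeq promoter windows of GRCm38.p6, which were found for 59 of the 80 genes. In the 20 bases on either side of the start, the letters CTTTCC on the sense strand occurred in 11 of the 59 (18.6%) and in 2.3% of all 27025 genes with a window. The shorter CTTTC, which lies within CTTTCC, occurred in 30.5% against 6.44%. CCGGAAG, the core bound by ETS factors, was found on either strand in 42.4% of the members' windows, from 250 bases before to 50 bases after the start, and in 9.93% of all genes. ATTGG, the CCAAT box in reverse, was found in 30.5% against 41.1%, and CACGTG, the E-box that Myc binds, in 10.2% against 8.09%. The TATA box letters TATAAA, 40 to 15 bases before the start, were in 0 of 59 windows and in 2.41% of all genes. The members' share was thus several times that of all genes for the pyrimidine letters and the ETS core. Whether these letters bear on the response to Dox was not tested. The following start-site windows of 40 bases are given because their genes recur in the results, with the start between base 20 and base 21 and CTTTCC in capitals. They lie at chr7:45128726-45128765 (minus strand), chr9:64173367-64173406 (plus strand) and chr17:27635225-27635264 (minus strand), in this order.
Rpl13a: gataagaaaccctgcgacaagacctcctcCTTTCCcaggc
Rpl4: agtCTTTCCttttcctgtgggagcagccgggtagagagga
Rps10: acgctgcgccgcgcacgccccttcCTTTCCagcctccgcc

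Ribosomal protein mRNA took a slightly larger share of all FPKM with Dox. The 80 genes summed to 40154, 40360 and 41494 FPKM in the Minus Dox libraries and to 41894, 43723 and 41646 FPKM in the Plus Dox libraries. This was 5.05% ± 0.0828 (SD, n = 3) of all FPKM in Minus Dox and 5.27% ± 0.0863 (SD, n = 3) in Plus Dox. Every Plus Dox library was above every Minus Dox library, and the group means differed by 1752 FPKM (4.31%), against a pooled SD of 951 FPKM. Without Plus Dox 2 the difference was 1101 FPKM. As a sum over chosen genes it was given no test.

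The listed levels of the single genes spanned a wide range. Over the 75 genes with a mean of 1 FPKM or more, the lower quartile was 56.4 FPKM, the median 230 FPKM and the upper quartile 712 FPKM, and the highest gene was 1121 times the lowest. Rpl41, whose coding sequence of 75 bases is among the shortest known, was highest with a mean of 4091 FPKM. Rplp1 of the stalk followed with 3340 FPKM, then Rps15 of the small subunit head with 2532 FPKM, Rpl8 with 2519 FPKM and Rplp0, the base of the stalk, with 2373 FPKM. At the other end, Rps6, the classic substrate of S6 kinase, had a mean of 12.3 FPKM. Rps12 was at 5.05 FPKM and Rpl17 at 3.65 FPKM. These 3 genes belong to every cytosolic ribosome, so their listed levels stand far below those of their partners. Small subunit genes had a median of 291 FPKM and large subunit genes one of 184 FPKM, with overlapping ranges.

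The remaining 5 genes were below the filter and were not tested. Rpl10l, Rpl39l and Rps4l were listed at 0 in all 6 libraries, and Rpl3l was above 0 only in Minus Dox 3, at 0.0722 FPKM. Rps4l was the member without an annotated protein-coding transcript. Rpl10l and Rpl39l are known from testis and Rpl3l from heart and skeletal muscle. Rps27 was listed at 1.41 FPKM in Minus Dox 1 and at 0 in the other 5 libraries, although it is a core small subunit gene. A listed 0 need not mean a silent gene here, since all 37 mitochondrial genes of the table were listed at 0 as well. The paralogs Rps27l, which p53 induces, and Rps4x, the X-linked form of Rps4, were well above the filter at 232 FPKM and 645 FPKM.

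**Figure D1:**
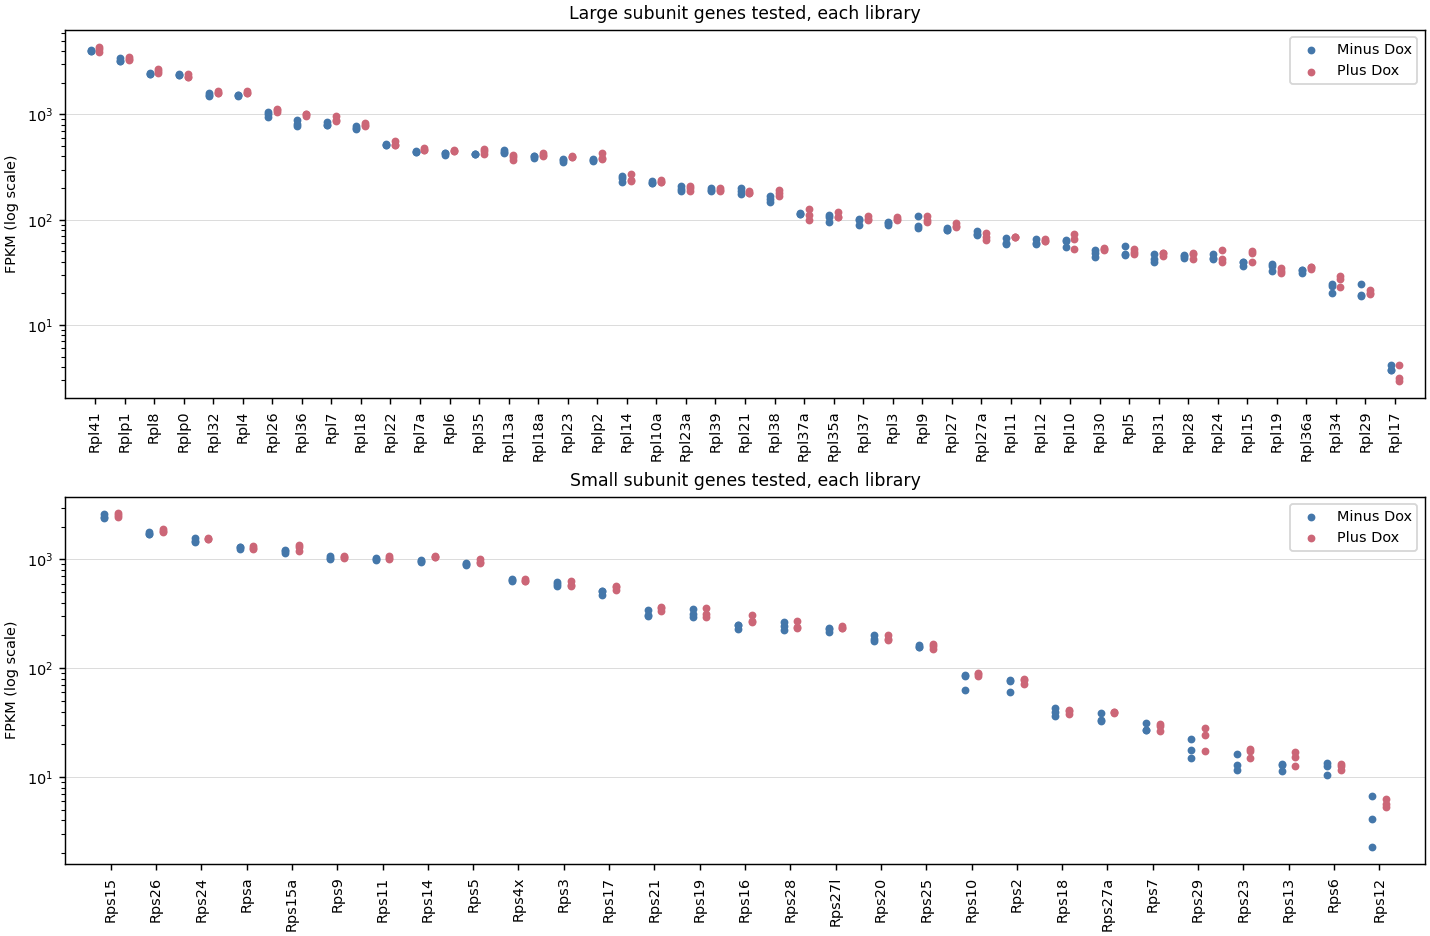
FPKM on a log axis of ribosomal protein genes tested, 45 of the large subunit above and 29 of the small subunit below, in the 3 Minus Dox (blue) and 3 Plus Dox (red) libraries, ordered by mean. Levels run from 3.65 FPKM (Rpl17) to 4091 FPKM (Rpl41), and Rps12 and Rps29 at the low end show a wide spread between libraries.

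Near-identical copies held a large part of the signal. The coding sequence of each member was aligned to all transcripts of the annotation, and a gene that matched at least 50% of it at 90% identity or more was called its copy. There were 1025 such copies, 994 of them processed pseudogenes and 19 annotated as protein-coding. Of these 709 were in the table, 501 were above 0 and 55 had a mean over 200 FPKM. A copy can lie within another gene. Wdr89, annotated as protein-coding, matched 100% of the Rplp2 coding sequence and had a mean of 242 FPKM. All of its FPKM was counted wherever the copies of Rplp2 were summed. In 39 members at least 1 copy was listed above the member itself. The copies of all members summed to 48879 FPKM ± 315 (SD, n = 3) in Minus Dox and 50885 FPKM ± 863 (SD, n = 3) in Plus Dox, more than the members themselves. Members and copies together made up 11.1% of all FPKM in Minus Dox and 11.6% in Plus Dox.

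Many genes with a low level had a strong copy. Rps6 itself had a mean of 12.3 FPKM and its copy Rps6-ps4 one of 1139 FPKM. Rps27 had a mean of 0.234 FPKM and Rps27rt one of 548 FPKM. Rps10, which sits at the mRNA entry side of the small subunit, was at 82.8 FPKM and Rps10-ps2 at 1850 FPKM. In each of the 3 the copy held nearly all of the pair's signal. Large subunit examples are Rpl19 at 34.1 FPKM and Rpl19-ps11 at 1718 FPKM, and Rpl27a at 72.1 FPKM and Gm7536 at 3537 FPKM. How reads that fit several places were divided is not given in the sources used here. A level listed for a member or for a copy is therefore uncertain, and which of them the mRNA came from cannot be told apart.

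The coding starts show how little separates them. The first 100 coding bases are given from GRCm38 for members and copies that recur in the results, and capitals mark bases that differ from the member. Rps6 lies at chr4:86856766-86857326 (minus strand, 2 exons) and its copy at chr2:75191723-75191822 (minus strand).
Rps6: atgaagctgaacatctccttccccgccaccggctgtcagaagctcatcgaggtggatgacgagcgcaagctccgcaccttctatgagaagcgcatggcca
Rps6-ps4: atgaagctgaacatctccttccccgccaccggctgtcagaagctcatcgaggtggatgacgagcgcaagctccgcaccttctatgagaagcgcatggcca
Over the whole coding sequence of 747 bases this pair differed at 0 bases. Rps27 lies at chr3:90213208-90213615 (minus strand, 2 exons) and Rps27rt at chr9:114982608-114982707 (minus strand), and they differed at 0 of 252 bases.
Rps27: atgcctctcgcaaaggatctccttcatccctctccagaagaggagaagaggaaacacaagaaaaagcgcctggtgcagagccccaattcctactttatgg
Rps27rt: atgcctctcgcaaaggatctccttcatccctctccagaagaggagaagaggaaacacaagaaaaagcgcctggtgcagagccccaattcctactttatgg
Rps10 lies at chr17:27634376-27634475 (minus strand) and Rps10-ps2 at chr16:20822541-20822640 (minus strand). They differed at 5 of 495 bases, none of them in the stretch given.
Rps10: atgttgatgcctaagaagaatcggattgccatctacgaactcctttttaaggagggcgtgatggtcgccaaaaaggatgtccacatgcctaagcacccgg
Rps10-ps2: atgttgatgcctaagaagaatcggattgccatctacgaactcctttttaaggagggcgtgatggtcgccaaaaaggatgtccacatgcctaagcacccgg
Rpl36 lies at chr17:56613588-56613913 (plus strand, 2 exons), its copy Gm13611 at chr2:32271845-32271944 (plus strand) and its copy Rpl36-ps12 at chr6:108140383-108140482 (minus strand).
Rpl36: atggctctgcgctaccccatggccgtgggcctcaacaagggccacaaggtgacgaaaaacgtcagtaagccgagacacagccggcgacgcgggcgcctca
Gm13611: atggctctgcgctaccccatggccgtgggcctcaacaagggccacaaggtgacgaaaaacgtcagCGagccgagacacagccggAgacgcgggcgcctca
Rpl36-ps12: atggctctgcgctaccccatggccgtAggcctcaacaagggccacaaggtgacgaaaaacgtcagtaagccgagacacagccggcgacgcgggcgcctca
Gm13611 differed from Rpl36 at 5 of 315 coding bases and Rpl36-ps12 at 3 of 315, so many reads of 50 bases fit more than 1 of the 3.

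Shared sequence and level were set side by side over all members. A window of 50 coding bases, the length of the reads, was called shared when it also occurred in a transcript of another gene. In 29 of the 79 members with an annotated coding transcript all windows were shared, in 43 at least 90% were, and the median was 91.3%. The 11 tested members with under 50% of windows shared lay between 232 and 2532 FPKM. All 28 tested members below 100 FPKM were among the 64 with 50% or more shared. Across genes, Spearman's rho between mean FPKM and the share of windows was −0.44, as a description, since members of a family share reads.

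When the FPKM of each member and its copies were added, the levels drew together. The lower quartile over the 75 genes became 477 FPKM, the median 1072 FPKM and the upper quartile 1652 FPKM. The SD of the log2 level was 1.74 in place of 2.33, and 8 genes in place of 28 were below 100 FPKM, 1 of the small and 7 of the large subunit. Not every low gene had a strong copy in the table: with copies added Rpl17 was at 23.2 FPKM and Rps12 at 105 FPKM. The table lists 34 of the 54 copies of Rpl17 and 20 of the 23 copies of Rps12, and the others have no value. Of the summed FPKM more than 50% came from copies in 42 members and more than 90% in 18.

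**Figure D2:**
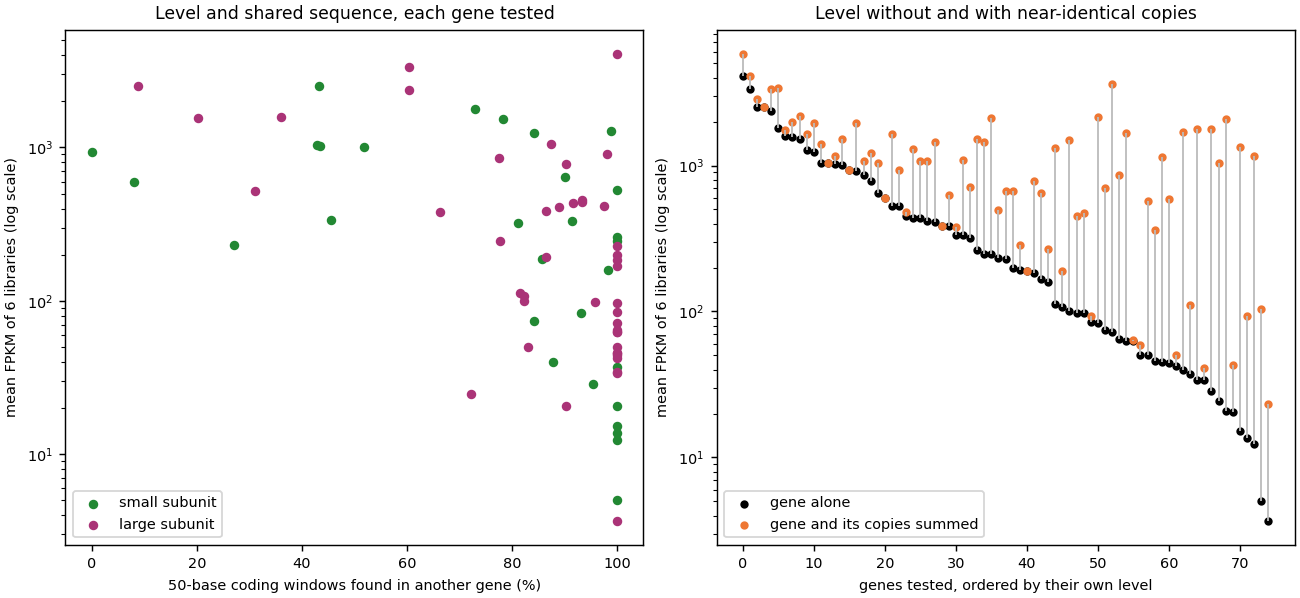
Left, mean FPKM (log axis) of each gene tested against the percent of its 50-base coding windows found in another gene; right, mean FPKM (log axis) of each gene alone (black) and with its copies added (orange), ordered by its own level. All 28 genes below 100 FPKM have at least 50% of windows shared, and adding the copies leaves 8 below 100 FPKM.

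The response to Dox was small and mostly upward. With limma on log2(FPKM + 0.1) over the 12879 genes whose mean reached 1 FPKM, 2 of the 75 ribosomal protein genes tested rose (adjusted p under 0.05) and 0 fell. Of all genes tested 7.06% rose and 7.97% fell, so the calls among ribosomal protein genes were below the background share in both directions. At an unadjusted p under 0.05, 22 were higher (29.3%, against 14.5% of all genes) and 1 lower (1.33%, against 14.7%). The log2 fold change was above 0 in 63 of the 75, with a median of 0.07 (a fold of 1.05), quartiles of 0.01 and 0.14 and a median SE of 0.051. Over all genes tested the median was 0.00 and 50.8% were above 0. The median of the ribosomal protein genes was also above 0 under each of 3 other scalings of the libraries. The number above 0 was 63 with scaling to the same median and 64 with scaling to the same sum over other genes. With quantile normalization it was 55, and leaving out 1 library gave 56 to 63, the 56 without Plus Dox 2. Among genes of like level, the 1622 other genes at 100 FPKM or more had a median of 0.02 and 55.9% above 0, and the 47 ribosomal protein genes at that level had a median of 0.06 and 40 above 0. In limma 12.9% of these other genes rose and 12.6% fell, against 2 (4.26%) and 0 of the 47. At an unadjusted p under 0.05, 23.6% were higher and 18.4% lower, against 16 (34%) and 1 (2.13%) of the 47. Members share reads and are not independent of each other, so these counts and medians are a description.

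Rps14 and Rpl36 were the genes that rose. Rps14, a small subunit protein near the mRNA exit site whose human gene is lost in the 5q- syndrome, was at 946, 962 and 982 FPKM in Minus Dox and at 1071, 1062 and 1053 FPKM in Plus Dox. Every Plus Dox library was above every Minus Dox library. The log2 fold change was 0.14 with an SE of 0.0235 and a limma adjusted p of 0.00923. Over the alternatives the adjusted p lay between 0.00758 and 0.0784, and it missed the threshold in limma without the variance trend. Rpl36, a small protein on the surface of the large subunit, was at 781, 882 and 816 FPKM in Minus Dox and at 1006, 1005 and 970 FPKM in Plus Dox. Again the groups did not overlap. The log2 fold change was 0.27 with an SE of 0.0454 and a limma adjusted p of 0.00969, which ranged from 0.00469 to 0.0641 and missed the threshold in the unmoderated model. As 98.1% of its windows are shared, its level and that of its copies cannot be told apart.

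The lowest adjusted p among genes that were lower belonged to Rpl13a, which also acts in the GAIT complex that silences inflammatory mRNAs. It was at 429, 436 and 458 FPKM in Minus Dox and at 368, 412 and 394 FPKM in Plus Dox. It was the only member with every Plus Dox library below every Minus Dox library. The difference was −0.17 (log2) with an SE of 0.0479 and a limma adjusted p of 0.0532, just outside the threshold. The value ranged from 0.0248 to 0.155 over the alternatives, and Rpl13a passed in 5 of 18, among them the fit without Plus Dox 2, where the adjusted p was 0.0392. Its 3′ UTR of 388 bases holds 1 of the 4 seed matches, and whether the seed has a part in this value was not tested.

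The largest differences belonged to genes of low level and wide spread. Rps12 was at 4.14, 2.27 and 6.64 FPKM in Minus Dox and at 6.24, 5.35 and 5.69 FPKM in Plus Dox, with overlapping groups. The difference was 0.52 (log2) with an SE of 0.346 and a limma adjusted p of 0.376. Over the alternatives it lay between 0.129 and 0.883. Rps29, a zinc-binding protein of the small subunit, had 0.33 (limma adjusted p = 0.340), and Rps23, which lies at the decoding center, had 0.30 (limma adjusted p = 0.200). The lowest values besides Rpl13a were Rpl17 with −0.18 (limma adjusted p = 0.536) and Rpl27a with −0.11 (limma adjusted p = 0.316). With copies added both signs turned, to 0.077 for Rpl17 and 0.020 for Rpl27a. None of these 5 passed the test, and 66 of the 75 genes lay within 0.2 of 0.

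**Figure D3:**
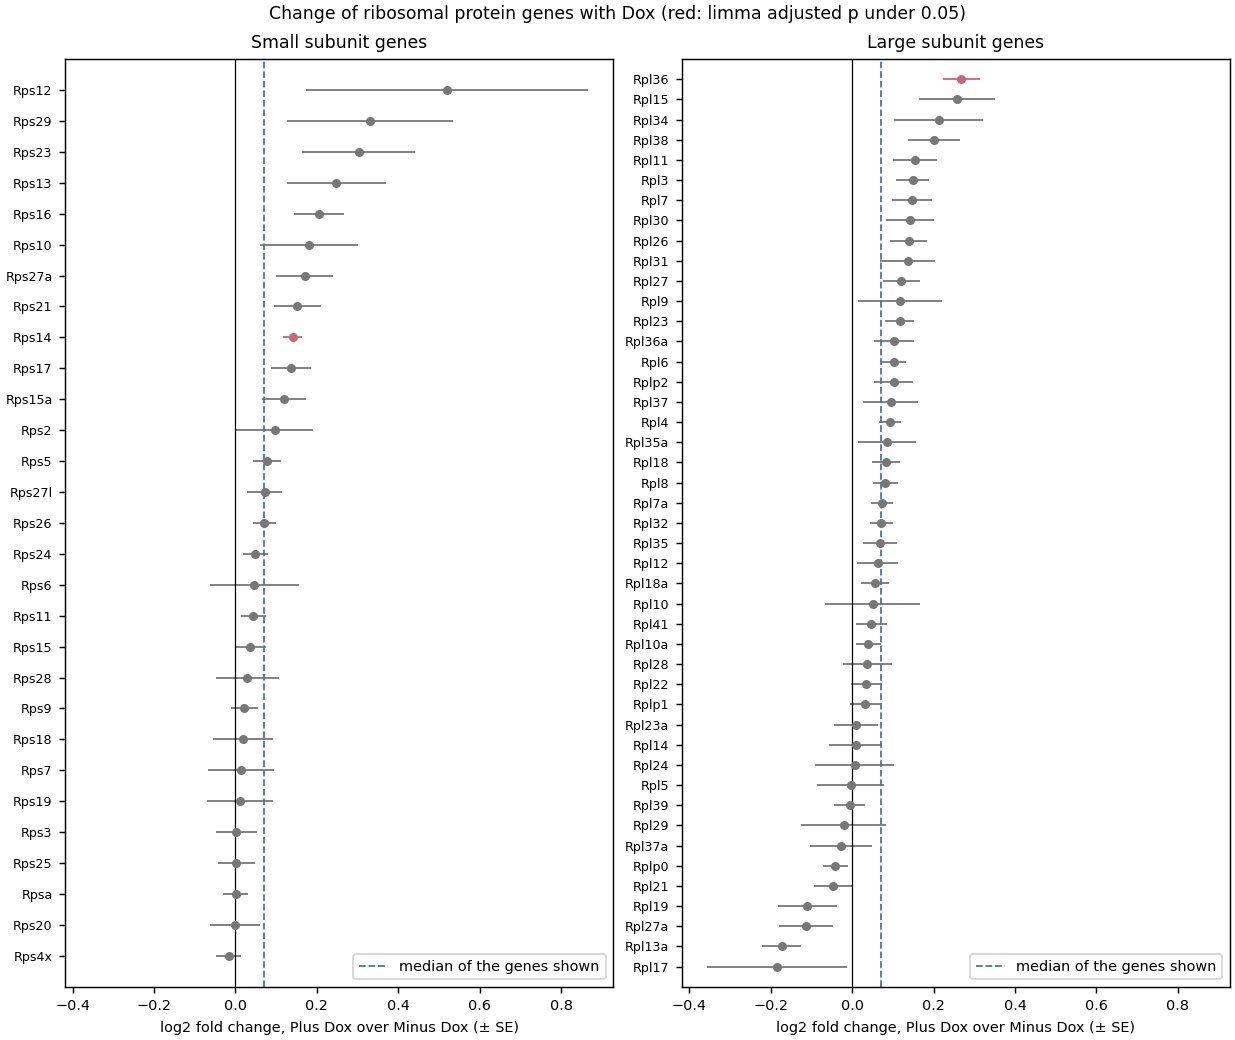
Log2 fold change of Plus Dox over Minus Dox with its SE for 29 small and 45 large subunit genes tested, in order of the value, with genes past an adjusted p of 0.05 in red. The dashed line marks the median of the genes shown in a panel, 0.07 in both, and Rps14 and Rpl36 are the red points.

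Counted without a model, 22 of the 75 genes had every Plus Dox library above every Minus Dox library, 1 had every one below, and in 52 the groups overlapped. Of all genes tested 17.4% had Plus Dox above and 17.6% had it below. The upward count was thus a larger share than in all genes, and the downward count a smaller one. Most of the upward genes were of the large subunit, 18 of 45, against 4 of 30 of the small subunit.

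The subunits had like medians. Small subunit genes had a median log2 fold change of 0.07, with 28 of 30 above 0, and large subunit genes one of 0.07, with 35 of 45 above 0. Each had 1 gene that rose and 0 that fell, and at an unadjusted p under 0.05 limma gave 6 higher (20%) and 0 lower in the small and 16 higher (35.6%) and 1 lower (2.22%) in the large subunit, against 14.5% and 14.7% of all genes. Without Minus Dox 1 the small subunit median was 0.03. The summed FPKM of the small subunit genes was 15914, 16126 and 16604 in Minus Dox and 16850, 17340 and 16508 in Plus Dox, so the groups overlapped. The sum of the large subunit genes was 24240, 24234 and 24890 in Minus Dox and 25044, 26384 and 25138 in Plus Dox, without overlap. The ratio of the large to the small subunit sum was 1.51 ± 0.0130 (SD, n = 3) in Minus Dox and 1.51 ± 0.0207 (SD, n = 3) in Plus Dox, a difference smaller than the spread between replicates.

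The members were then grouped by place and role in the ribosome. The stalk, which recruits the translation factors, consists of Rplp0, Rplp1 and Rplp2 on a base formed with Rpl12, and 0 of these 4 genes passed the limma test in either direction. Their log2 fold changes were −0.04 for Rplp0, 0.03 for Rplp1, 0.10 for Rplp2 and 0.06 for Rpl12. At an unadjusted p under 0.05 none of them was called. Rpl5 and Rpl11 bind 5S rRNA and, when free, hold back Mdm2, the ligase for p53. Rpl5 had a log2 fold change of −0.00 (limma adjusted p = 0.983). Rpl11 was at 59.6, 58.4 and 66.4 FPKM in Minus Dox and at 68.3, 68.1 and 68.5 FPKM in Plus Dox, without overlap, and its log2 fold change was 0.15 (limma adjusted p = 0.114). Neither passed the test, and at an unadjusted p under 0.05 limma called Rpl11 alone. Beside these small lists stand the shares over all genes, 7.06% higher and 7.97% lower in limma. At the unadjusted p they were 14.5% and 14.7%.

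Rps2, Rps3, Rps10 and Rps20 carry the ubiquitin marks by which stalled ribosomes are handled. Their log2 fold changes were 0.10, 0.00, 0.18 and −0.00, and limma adjusted p lay between 0.376 and 0.990. Over the alternatives the log2 fold change lay between −0.016 and 0.162 for Rps2 and between 0.029 and 0.262 for Rps10. It lay between −0.048 and 0.036 for Rps3 and between −0.051 and 0.052 for Rps20. No member of this group was called at an unadjusted p under 0.05 either. The 8 genes around the polypeptide exit tunnel had a median of 0.04, and limma called 0 in either direction, with 2 higher (25%, against 14.5% of all genes) and 0 lower at an unadjusted p under 0.05. In that group Rpl4, whose loop lines the tunnel, was at 1525, 1489 and 1537 FPKM in Minus Dox and at 1593, 1671 and 1594 FPKM in Plus Dox. Its groups did not overlap, and its log2 fold change was 0.09 (limma adjusted p = 0.0631, range 0.0322 to 0.643 over the alternatives). It passed in 3 of 18 alternatives. The 15 small subunit genes with relatives in bacteria and archaea had a median of 0.08, with Rps14 as the gene that rose, and 2 were higher (13.3%) and 0 lower at an unadjusted p under 0.05. The 18 such genes of the large subunit had a median of 0.07 and 0 called by limma, with 7 higher (38.9%) and 1 lower (5.56%) at an unadjusted p under 0.05, where all genes had 14.5% and 14.7%. Of the paralogs above the filter, Rps27l had 0.07 (limma adjusted p = 0.321) and Rps4x −0.02 (limma adjusted p = 0.767).

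With copies added the median difference was of like size and more genes passed. In that fit, chosen after the data were seen, 76 families passed the filter, since Rps27 joined with its copies. The families of 8 genes rose (10.5%) and 0 fell, where 7.33% of all 12655 genes tested rose and 8.31% fell. At an unadjusted p under 0.05, limma gave 25 higher and 1 lower (32.9% and 1.32%, against 14.7% and 14.9% of all genes). Other genes at 100 FPKM or more are nearer in level to the families. In the fit on genes alone 12.9% of them rose and 12.6% fell, so the families' share that rose was not above theirs. At the unadjusted p 23.6% of these other genes were higher and 18.4% lower. The median log2 fold change of the families was 0.06, with 62 of 76 above 0. The highest value was 0.25, against 0.52 for the genes alone. Rps12 had 0.17, Rps29 0.17 and Rps23 0.10, each smaller than for the gene alone. The small subunit median was 0.07 and the large subunit median 0.06. The count of 8 depended on the libraries: it was 2 without Minus Dox 1, without Minus Dox 2 or without Plus Dox 3, 3 without Plus Dox 2 and 4 without Plus Dox 1.

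Rpl36 had the largest increase among the families that rose, at 1727, 1902 and 1846 FPKM in Minus Dox and 2087, 2176 and 2066 FPKM in Plus Dox. It rose by 0.21 on the log2 scale (SE 0.0394, limma adjusted p = 0.0136). Rps14 was at 1463, 1464 and 1439 FPKM in Minus Dox and 1597, 1593 and 1556 FPKM in Plus Dox, with a log2 fold change of 0.12 (limma adjusted p = 0.0105). Both genes that rose alone were thus among the 8. Rps10, of which copies held 96.1% of the FPKM, was at 2032, 2078 and 2078 FPKM in Minus Dox and 2302, 2174 and 2214 FPKM in Plus Dox. It rose by 0.11 on the log2 scale (limma adjusted p = 0.0302). Rps2, at the mRNA entry tunnel, had 0.12 (limma adjusted p = 0.0304). Rpl6 had 0.10 (limma adjusted p = 0.0452), Rpl4 0.09 (limma adjusted p = 0.0397) and Rpl12 of the stalk base 0.09 (limma adjusted p = 0.0246). In all 8 families the Plus Dox libraries lay above the Minus Dox libraries. The Rpl13a family had −0.12 (limma adjusted p = 0.0657) and again every Plus Dox library below.

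**Figure D4:**
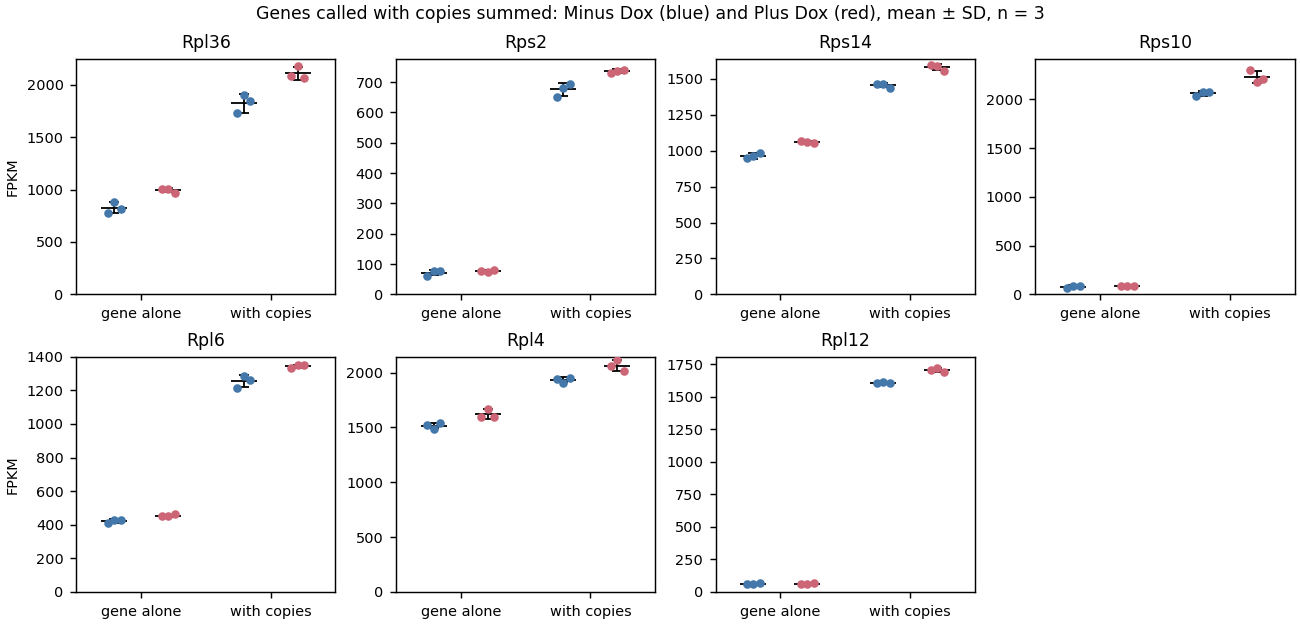
FPKM of 7 of the 8 genes that rose with copies summed, for the gene alone and for the gene with its copies, in 3 Minus Dox (blue) and 3 Plus Dox (red) libraries with mean and SD. In each panel the Plus Dox libraries with copies lie above the Minus Dox libraries, and for Rps2, Rps10 and Rpl12 the gene alone is a small part of the sum.

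The libraries differed in how far the ribosomal protein genes stood from their mean over all 6. The median deviation of the members was −0.05, −0.04 and −0.01 (log2) in Minus Dox 1, 2 and 3 and 0.02, 0.07 and 0.02 in Plus Dox 1, 2 and 3. Over all genes tested the medians stayed between −0.01 and 0.02. Plus Dox 2 was thus the highest and Minus Dox 3 the highest of its group. These libraries were also the deepest by the step size of the lowest FPKM values. Relative to Minus Dox 1 the depth was 0.916 in Minus Dox 2 and 1.31 in Minus Dox 3, and it was 0.969, 1.49 and 1.11 in Plus Dox 1, 2 and 3. The part of depth in the level of the ribosomal protein genes was not tested. Without Minus Dox 3 the number of ribosomal protein genes that rose was 5.

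**Figure D5:**
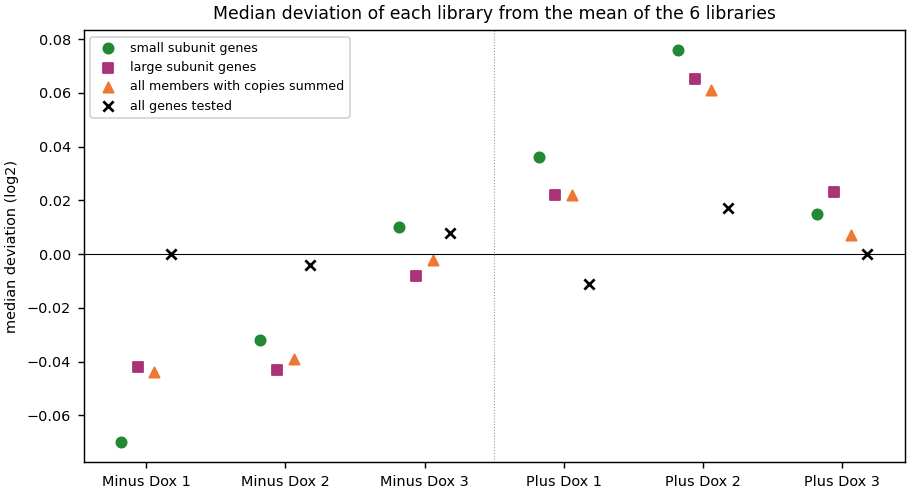
Median deviation (log2) of small subunit genes, large subunit genes, all members with copies summed and all genes tested from their mean over the 6 libraries. Members lie below 0 in Minus Dox 1 and 2, near 0 in Minus Dox 3 and above 0 in the Plus Dox libraries, highest in Plus Dox 2, while all genes tested stay between −0.01 and 0.02.

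Ribosomal protein genes with names of another form gave like values. Of 9 such genes 7 were tested, 1 rose (14.3%, against 7.06% of all genes) and 0 fell, with 3 higher (42.9%, against 14.5%) and 0 lower at an unadjusted p under 0.05 in limma. Gnb2l1, now named Rack1, the signalling scaffold on the small subunit head, was at 1209, 1237 and 1218 FPKM in Minus Dox and at 1304, 1349 and 1297 FPKM in Plus Dox. The rise was 0.11 (log2, SE 0.0244, limma adjusted p = 0.0269), and the call was lost in 10 of 18 alternatives, over which the adjusted p ranged from 0.0117 to 0.149. Rps3a1 had 0.08 (limma adjusted p = 0.0698), Rpl7l1 0.10 (limma adjusted p = 0.114) and Rpl36al 0.16 (limma adjusted p = 0.245). Fau, whose product starts with a ubiquitin-like part, had 0.07 (limma adjusted p = 0.537), and Rpl22l1 had −0.05 (limma adjusted p = 0.601).

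Genes that assemble the subunits mostly had log2 fold changes above 0. Of 41 large subunit assembly genes 7 rose (17.1%) and 0 fell in limma, and 18 were higher and 1 lower at an unadjusted p under 0.05 (43.9% and 2.44%). The shares over all genes, 7.06% and 7.97% in limma and 14.5% and 14.7% at the unadjusted p, stand beside this list and those below, and no list was tested for enrichment. The median log2 fold change of the 41 was 0.11, with 33 above 0. Eif6, which keeps the new large subunit from joining the small subunit too early, was at 186, 204 and 203 FPKM in Minus Dox and at 269, 281 and 276 FPKM in Plus Dox. Eif6 rose by 0.48 on the log2 scale (SE 0.0431, limma adjusted p = 0.000723), and it passed in 18 of 18 alternatives. Noc4l, which is known to work with Nop14 on the small subunit although it stood in this list, had 0.39 (limma adjusted p = 0.0132). Mdn1, the giant ATPase that strips assembly factors, had 0.28 (limma adjusted p = 0.0217). Zfp622, which helps to recycle factors from late large subunits, had 0.19 (limma adjusted p = 0.0490), Rrp1 0.18 (limma adjusted p = 0.0282) and the nucleolar protein Ncl 0.16 (limma adjusted p = 0.0372). The gene left, Rrs1, which brings in the 5S particle, had 0.15 (limma adjusted p = 0.0202). The call was lost in 1 of 18 alternatives for Noc4l, 4 for Mdn1, 8 for Rrp1, 8 for Rrs1, 10 for Ncl and 12 for Zfp622.

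Of 37 small subunit assembly genes 3 rose and 0 fell in limma, with a median of 0.11 and 29 above 0. The share that rose, 8.11%, was near the 7.06% of all genes. At an unadjusted p under 0.05, 15 were higher (40.5%) and 0 lower. Ltv1, a late export factor, had 0.23 (limma adjusted p = 0.0461). Utp15 and Pwp2, parts of the early processome on the nascent rRNA, had 0.22 (limma adjusted p = 0.0351) and 0.21 (limma adjusted p = 0.0486). Each of these 3 calls was lost in 7 to 9 of 18 alternatives. Among 15 genes of RNA polymerase I, which makes the rRNA, 0 rose and 1 fell in limma, against 2 higher (13.3%) and 1 lower (6.67%) at an unadjusted p under 0.05. Twistnb, a subunit, had −0.31 (limma adjusted p = 0.0356), a call lost in 8 of 18 alternatives. Of 16 chaperones and importers of ribosomal proteins 1 rose and 0 fell in limma, with 2 higher (12.5%) and 0 lower at an unadjusted p under 0.05. It was Nacc1 with 0.16 (limma adjusted p = 0.0401, lost in 10 of 18 alternatives), which despite its name is known as a transcription regulator of the BTB family and not as a chaperone.

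Among 21 genes listed for the control of TOP mRNAs 5 rose (23.8%, against 7.06% of all genes) and 0 fell in limma, with a median of 0.02, and 7 were higher (33.3%, against 14.5%) and 0 lower at an unadjusted p under 0.05. The 7 include Larp7, known to bind 7SK RNA and not for a part in TOP mRNA control, with 0.13 (limma adjusted p = 0.0732). Larp1, which binds the cap and the pyrimidine run, was at 90.6, 89.8 and 88.3 FPKM in Minus Dox and at 102, 104 and 105 FPKM in Plus Dox. It rose by 0.21 on the log2 scale (SE 0.0329, limma adjusted p = 0.00750). Eif4ebp2 and Eif4ebp1, which restrain cap-dependent translation when mTOR is off, had 0.24 (limma adjusted p = 0.0215) and 0.10 (limma adjusted p = 0.0488). Pabpc1, the poly(A) binding protein and itself made from a TOP mRNA, had 0.14 (limma adjusted p = 0.0195). Zfp598, which stood in this list although it is known as the ubiquitin ligase for collided ribosomes, had 0.25 (limma adjusted p = 0.00917). Larp1 and Zfp598 passed in 18 of 18 alternatives, whereas the call was lost in 7 for Eif4ebp2, 7 for Pabpc1 and 10 for Eif4ebp1. How well the ribosomal protein mRNAs were translated was not measured.

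Of the p53 genes that respond when ribosome assembly fails, 12 were tested, and in limma 0 rose and 1 fell, with 3 higher (25%) and 3 lower (25%) at an unadjusted p under 0.05. Sesn1, a p53 target that restrains mTOR, was at 11.96, 10.99 and 10.47 FPKM in Minus Dox and at 6.91, 7.45 and 6.90 FPKM in Plus Dox, a log2 fold change of −0.64 (SE 0.0874, limma adjusted p = 0.00402), which passed in 18 of 18 alternatives. Trp53 itself had 0.13 (limma adjusted p = 0.110) and Mdm2 0.01 (limma adjusted p = 0.966). Besides Sesn1 and Trp53, the genes called at the unadjusted p were the p53 targets Cdkn1a, a cell cycle inhibitor, with −0.32 (limma adjusted p = 0.0828), Bax, which promotes cell death, with −0.14 (limma adjusted p = 0.161), Ccng1, a cyclin, with 0.20 (limma adjusted p = 0.0653) and Sesn2, the paralog of Sesn1, with 0.17 (limma adjusted p = 0.0828).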

How the data were processed

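The authors sequenced mRNA (TruSeq Stranded RNA, single reads of 50 bases, HiSeq4000), mapped the reads with gSNAP to the mouse genome (GRCm38.p6, with FVB_NJ_v1 named beside it) and deposited FPKM values per gene and library as Cufflinks estimated them. Versions are not given in the sources used here. The deposited columns of group means, fold change, p-value and q-value come from the authors' own comparison by ANOVA and were not used. The table has 43611 lines and 43548 gene identifiers. For repeated identifiers the line with the highest mean was kept (63 dropped), and the value 999999999 (6 cells, 4 genes, no ribosomal protein gene) was treated as missing.

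The main comparison was a limma 3.58.1 fit (lmFit, eBayes with trend, R 4.3.3) on log2(FPKM + 0.1) over the 12879 genes whose mean reached 1 FPKM. It had no term besides the group, and adjustment was by Benjamini-Hochberg over all genes tested, at 0.05. Fold changes are on the log2(FPKM + 0.1) scale, which understates the change of low genes. The script was tested on simulated data. Genes were named by these rules: the 5 highest and 5 lowest means, all at 0, all called, the 3 highest and 3 lowest fold changes, every member of 4 small structural lists, and up to 6 called genes of each wider list. Values of Trp53, Mdm2 and Cdkn1a, Rpl4 beside its list, Rrs1, and the families called with copies summed were added after they were seen. The members and the lists were chosen with earlier results of these data known. Rpl13, Rpl26l1, Utp4 and Efl1 were not found in the table by these symbols, and Pict1 is listed as Gltscr2. Values of some single genes are not reported here, while counts and medians include them.

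Copies were searched in GENCODE M21 (GRCm38) with blastn 2.17.0. The coding sequence had to match over at least 50% at 90% identity or more, and windows of 50 bases were matched exactly. The annotation is of another strain than the cells, so a copy may differ or be absent there. miRNA and promoter sequences are those of RefSeq (GRCm38.p6). Relative depth was taken from the most common ratio of low FPKM values between libraries. Python 3.11.15 with pandas 2.3.3, numpy 2.4.6, scipy 1.17.1 and matplotlib 3.10.9 was used. Alternatives were another pseudocount, filter, scaling, variance model or handling of repeated identifiers, the replicate block, each library left out, and copies summed, the last chosen after seeing the data.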

Additional observations from a re-analysis of the deposited data

How the results depend on the processing

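The median log2 fold change of all ribosomal protein genes, of each subunit and the difference of the summed FPKM stayed above 0 and within the spread between replicates of the reported value in all alternatives run on the genes alone. Against 2 genes that rose, 4 rose with the libraries scaled to the same median and 4 with scaling to the same sum over other genes, 1 without the variance trend, 1 in the unmoderated model, and 8 with copies summed. Leaving out 1 library gave 2 to 5, the 5 without Minus Dox 3. Against 0 that fell, 1 fell at a minimum mean of 5 FPKM, 1 with quantile normalization and 1 with each of those 2 scalings, and leaving out 1 library gave 0 to 1, the 1 without Plus Dox 2. The cause was not tested.

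With copies summed, against 8 that rose, leaving out 1 library gave 2 to 8. Against 0 that fell, it gave 0 to 1, and 1 fell with quantile normalization and 1 with scaling to the same median. The small subunit median became 0.028 with quantile normalization. The cause was not tested.

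Same-numbered libraries of the groups deviated together with correlations of 0.0287, 0.0359 and −0.00759, so the numbers do not pair the samples. With the replicate number as a block 3 genes rose and 0 fell. With copies summed the block gave 3 that rose and 0 that fell. Over all genes 633 rose and 704 fell with the block, against 909 and 1026.

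The 30 genes followed over the alternatives that passed the test kept their side of the threshold in 393 of 535 alternatives and missed it in 142. The 39 followed that did not pass crossed it in 19 of 700, and in 21 alternatives over 11 of them the sign differed. No call reversed. FPKM carry no counts, so the precision of each value is known only from 3 libraries a group. Members and copies share reads, which limits every level listed for a single gene.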

Other observations

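Copies of ribosomal protein genes were also tested on their own. Of 225 copies with a mean of at least 1 FPKM, limma called 8 higher (3.56%) and 1 lower (0.444%), shares below the 7.06% and 7.97% of all genes, with a median log2 fold change of 0.05. At an unadjusted p under 0.05 there were 26 higher (11.6%) and 6 lower (2.67%), against 14.5% and 14.7% of all genes. Gm10076, annotated as a lincRNA and identical to the coding sequence of Rpl41, was at 1623, 1608 and 1676 FPKM in Minus Dox and at 1825, 1824 and 1818 FPKM in Plus Dox. The difference was 0.16 (log2, limma adjusted p = 0.00532), while Rpl41 itself had 0.05 (limma adjusted p = 0.479). For Gm10076 the log2 fold change lay between 0.078 and 0.174 over 17 alternatives. Its call was lost in 2 of them, among them quantile normalization, where the log2 fold change was 0.078. Some copies of Rpl36 were called as well, but not its most abundant copy Gm13611, which had 0.11 (limma adjusted p = 0.448) with overlapping groups. Rpl36-ps12 was at 261, 266 and 247 FPKM in Minus Dox and at 305, 291 and 288 FPKM in Plus Dox (log2 fold change 0.19, limma adjusted p = 0.0203, lost in 5 of 17). Rpl36-ps3 had 0.41 (limma adjusted p = 0.00999, lost in 1 of 17). Rps15-ps2 was the copy that was lower, at 333, 322 and 315 FPKM in Minus Dox and at 300.1, 296 and 282 FPKM in Plus Dox (log2 fold change −0.14, limma adjusted p = 0.0388, lost in 9 of 17), while Rps15 had 0.04 (limma adjusted p = 0.583). Whether the difference between a member and its copy lies in the mRNA or in the division of reads was not tested.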
